A study of Mus musculus with 4 samples.

Results

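Nearly all replication-dependent histone genes of the mouse sit in 3 clusters, and this account describes where the 3 subunits of the transcription factor NF-Y were found in these clusters in embryonic stem cells. Members were chosen by locus alone: every called binding site whose centre, the midpoint of its start and end, lay in a fixed window of the mm9 genome build. The windows were chr13:21500000-24000000 for the Hist1 cluster, chr3:96000000-96150000 for Hist2 and chr11:58700000-58800000 for Hist3. They held 117 of the 10091 sites of the series: 48 of the 4642 in the NF-YA list, 34 of the 2774 in that of NF-YB and 35 of the 2675 in that of NF-YC. Sites whose neighbouring centres lay within 200 bp were chained into regions, which gave 53 regions of 5350 in all. The windows were picked with the crowding of sites in these loci already known, so the crowding itself is given as a description. Single genes were not assigned to sites, so a region in a window need not lie at a histone gene.

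The data are chromatin immunoprecipitation and sequencing (ChIP-seq) maps from E14Tg2a cells, an embryonic stem cell line of the 129/Ola strain, fixed with formaldehyde and given no other treatment. One antibody was used for each group: a mouse monoclonal against NF-YA, and rabbit polyclonals against NF-YB and NF-YC, per the labels. Each subunit had 1 library, and an input DNA library served as background. Between 11390494 and 13859303 tags per library were kept for site calling. With 1 library per subunit no test between subunits or loci was possible, every comparison below describes these libraries, and binomial intervals cover counting error only.

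NF-Y binds the CCAAT box, a short promoter element. NF-YB and NF-YC pair through histone-fold domains that resemble those of the core histones H2A and H2B, and NF-YA joins the pair and contacts the DNA. Replication-dependent histone genes supply the H2A, H2B, H3 and H4 proteins of the nucleosome and the linker histone H1 when DNA is copied. They lack introns, their messages end in a stem-loop in place of a poly(A) tail, and many H2A and H2B genes lie head to head and share a promoter. Embryonic stem cells divide fast and spend much of their cycle in S phase, when these genes are used.

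Promoters of 6 of these genes are printed here for the CCAAT boxes they hold or lack. They come from RefSeq, in the C57BL/6J build GRCm38.p6, and run from 250 bases before to 50 bases after the start of the gene. No sequence of the mm9 sites is shown, and no site was placed on these promoters, because the builds differ. For each histone class the promoter with most copies of CCAAT was taken, and for H4 also the first by symbol that holds none. Capitals mark CCAAT and its complement ATTGG, which is CCAAT read on the other strand.
H1f5 (GRCm38.p6, chr13:21780576-21780875, minus strand): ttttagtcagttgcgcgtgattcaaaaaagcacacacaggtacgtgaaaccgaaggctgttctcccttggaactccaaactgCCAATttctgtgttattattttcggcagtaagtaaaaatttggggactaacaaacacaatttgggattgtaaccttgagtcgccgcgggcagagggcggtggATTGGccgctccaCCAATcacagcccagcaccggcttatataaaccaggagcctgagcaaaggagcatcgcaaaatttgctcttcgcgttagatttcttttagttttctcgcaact
H2ac11 (GRCm38.p6, chr13:22042900-22043199, minus strand): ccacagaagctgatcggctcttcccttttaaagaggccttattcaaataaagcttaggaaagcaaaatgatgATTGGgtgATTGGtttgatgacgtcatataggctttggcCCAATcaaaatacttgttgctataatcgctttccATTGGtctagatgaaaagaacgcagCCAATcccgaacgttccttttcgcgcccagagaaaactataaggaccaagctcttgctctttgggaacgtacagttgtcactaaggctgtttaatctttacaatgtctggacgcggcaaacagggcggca
H2bc11 (GRCm38.p6, chr13:22042948-22043247, plus strand): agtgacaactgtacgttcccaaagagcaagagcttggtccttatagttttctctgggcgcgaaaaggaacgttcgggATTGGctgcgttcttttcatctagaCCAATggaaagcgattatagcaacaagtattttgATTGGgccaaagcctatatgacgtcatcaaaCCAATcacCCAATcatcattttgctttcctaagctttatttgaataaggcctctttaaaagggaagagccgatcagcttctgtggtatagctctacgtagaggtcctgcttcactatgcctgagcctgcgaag
H3c3 (GRCm38.p6, chr13:23745472-23745771, minus strand): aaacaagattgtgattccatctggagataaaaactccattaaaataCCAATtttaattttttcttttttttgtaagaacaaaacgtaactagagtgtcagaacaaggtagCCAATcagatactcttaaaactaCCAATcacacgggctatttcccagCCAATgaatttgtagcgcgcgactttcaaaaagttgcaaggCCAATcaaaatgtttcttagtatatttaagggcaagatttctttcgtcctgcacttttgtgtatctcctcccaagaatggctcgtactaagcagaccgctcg
H4c3 (GRCm38.p6, chr13:23698409-23698708, minus strand): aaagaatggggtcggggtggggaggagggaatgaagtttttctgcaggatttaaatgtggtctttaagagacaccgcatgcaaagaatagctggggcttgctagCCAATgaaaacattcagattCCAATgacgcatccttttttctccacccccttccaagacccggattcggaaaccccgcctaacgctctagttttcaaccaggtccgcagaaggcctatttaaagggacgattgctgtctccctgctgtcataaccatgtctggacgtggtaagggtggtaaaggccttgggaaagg
H4c11 (GRCm38.p6, chr13:21734784-21735083, plus strand): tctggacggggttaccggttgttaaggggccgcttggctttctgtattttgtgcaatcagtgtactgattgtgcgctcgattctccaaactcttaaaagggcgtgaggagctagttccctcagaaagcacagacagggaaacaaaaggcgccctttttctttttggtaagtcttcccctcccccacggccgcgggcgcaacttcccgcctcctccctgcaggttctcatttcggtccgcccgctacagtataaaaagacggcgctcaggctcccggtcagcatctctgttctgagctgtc
H1f5 encodes a linker histone, and its promoter holds 3 copies, 2 of them on the strand of the gene. H2ac11 and H2bc11, an H2A and an H2B gene that face away from each other, hold 5 copies each, and their windows share 252 bases, so these are largely the same copies read from either side. All 5 copies of the H3 gene H3c3 point the way of the gene. H4c3 holds 2 copies, the most of any H4 window in the table, and H4c11 holds none in this window.

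CCAAT was present in promoters of every histone class, and only H4 had windows without it. Of the 70 genes in the histone list, 3 of them pseudogenes, 62 had a promoter in the table, with 63 windows since H2bc6 has a pair of starts. H2ac14, H2af-ps2, H2bc21, H2bc4, H2bu1-ps, H3c1, H3c7 and H4c14 had no entry. H4f16, on chromosome 6 and outside the 3 clusters, is counted among the H4 windows and holds no copy. The letters CCAAT were found on either strand in 54 of the 63 windows (85.7%, exact 95% binomial interval 74.6 to 93.3), against 37.4% of all 32851 promoter windows of the table. The windows are not independent, since 10 pairs of H2A and H2B genes share most of their bases. With 1 window for each such pair and 1 for H2bc6, a choice added after seeing the data, the count was 43 of 52 (82.7%, 69.7 to 91.8). All 6 H1, 18 H2A, 17 H2B and 10 H3 windows held at least 1 copy. Of the 12 H4 windows 3 did (25%, 5.49 to 57.2), an interval that holds the 37.4% of all promoter windows. The 3 were H4c1, H4c3 and H4c4, with 1, 2 and 1 copies. In the H3 windows of H3c14 and H3c15 the only copy lay after the start, 29 and 14 bases past the first base of the gene. The other 9 H4 windows lack these letters, which says nothing of whether NF-Y is found near those genes.

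Copies came in groups in the H2A, H2B and H3 promoters. At least 2 copies were present in all H2A and H2B windows and in 8 of 10 H3 windows, but in 1 of 6 H1 windows, that of H1f5. Over all promoters 11.7% held 2 or more. The median was 3 copies per window for H2A and for H2B, 2 for H3, 1 for H1 and 0 for H4. In H1 and H3 the copies mostly pointed the way of the gene (7 of 8 and 23 of 25), whereas in H2A and H2B they were split between the strands, 27 and 27 in H2A and 29 and 27 in H2B. The windows of the 10 pairs overlapped by 220 to 279 bases, and copies in the shared part were counted for both genes. Copies were on both strands also outside the pairs, 8 and 11 in the 8 other H2A windows and 13 and 8 in the 7 other H2B windows, with the strand of the gene given first.

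The copies also lay close together. Neighbouring copies in a histone window started a median of 30 bases apart (quartiles 25 and 40, 93 gaps), against 50 bases in all promoters (31 and 95, 5418 gaps). Of the histone gaps, 61.3% measured 20 to 40 bases, against 26.6% over all promoters. With each shared promoter entered once, the median of the remaining 66 gaps was again 30 bases, and 56.1% measured 20 to 40. The first bases of the copies lay at a median of 98 bases upstream of the start (position -98, counting the first base of the gene as 0), close to the -92 of all promoters, but 88.4% of them fell between 40 and 200 bases upstream, against 61.9%. In 5 of the 6 H1 windows the single copy lay between -65 and -51. The plot of motif positions by class shows this H1 group beside the broad H2A and H2B spread.

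**Figure D1:**
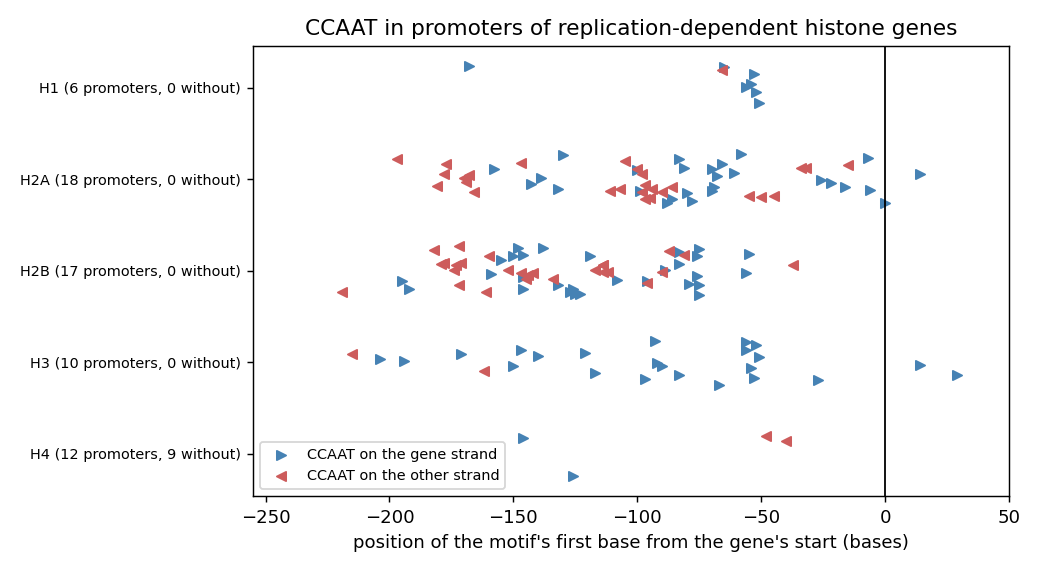
Position of each CCAAT in the RefSeq promoter windows of replication-dependent histone genes, by histone class (rows); the x axis gives bases from the start of the gene, and arrow direction and colour give the strand. H2A and H2B copies run in both directions between about 200 bases upstream and the start, H1 copies gather near -55, and 9 of 12 H4 windows hold none.

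Extended forms of the motif differed between classes. CCAATCA was present on either strand in 38 of the 63 windows (60.3%), against 7.82% of all promoters, and in 6 of 6 H1, 13 of 18 H2A, 13 of 17 H2B, 6 of 10 H3 and 0 of 12 H4 windows. CCAATGA was present in 15 windows (23.8%, against 4.42%), of which 7 were H2A and 6 H2B. The octamer ATTTGCAT, the element bound by OCT factors, was present in 7 of 18 H2A and 7 of 17 H2B windows and in no H1, H3 or H4 window, against 1.74% of all promoters. Entered once per shared promoter, it was present in 10 of 24 H2A and H2B windows. TATAAA was present in 55.6% of the histone windows, 8 of the 12 H4 windows among them, against 13.6% over all promoters. These motifs were searched on both strands, the forms of CCAAT contain CCAAT itself, and a match describes letters and not binding.

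Replacement histones are made outside S phase as well as in it, from genes elsewhere in the genome. Of the 10 listed, 9 had a promoter in the table and H2ax had no entry. CCAAT was present in 6 of these 9 (66.7%, 29.9 to 92.5), an interval that holds the 37.4% of all promoter windows. There were 4 copies in H2az2 and in H3f3b, 3 in H2az1, 2 in Cenpa and 1 in H3f3a and in Macroh2a2. Of the 9, 2 held a copy on the strand of the gene (22.2%), close to the 21.1% of all promoter windows. Of the replication-dependent windows 52 of 63 did (82.5%), among them all 10 of H3 but only 1 of 12 of H4.

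In the ChIP-seq data the 3 subunits were crowded into short stretches of the loci. The Hist1 window had 40 regions, made of 35 NF-YA sites, 26 sites of NF-YB and 29 for NF-YC. That was 16 regions per Mb, against 2.10 over the genome, and 19.7% of the 203 regions of chromosome 13 (29.3% of its NF-YC sites). For Hist2 the counts were 6, 2 and 2 sites in 6 regions, in the same order of subunits, and for Hist3 they were 7, 6 and 4 sites in 7 regions.

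Hist1 was not filled evenly. With a break wherever neighbouring centres lay over 100 kb apart, its 40 regions fell into 5 blocks, numbered here along the chromosome. Block 1 was 1 weak NF-YA site. Block 2 held 10 regions at chr13:21808111-21988991 and block 3 held 2 regions at chr13:22127531-22134991. After an empty stretch of 1326 kb, block 4 was 1 region and block 5 held 26 regions at chr13:23580711-23864691, within 284 kb. No site was called in the rest of the window up to 24000000. The histone genes of chromosome 13 are themselves grouped in the RefSeq table: 54 protein-coding genes of the list formed 4 blocks by the same gap, with 18, 5, 29 and 2 genes in order. The last pair, H2bc1 and H2ac1, are the testis histones TH2B and TH2A. The block counts stand side by side without a match of positions, as the builds differ.

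**Figure D2:**
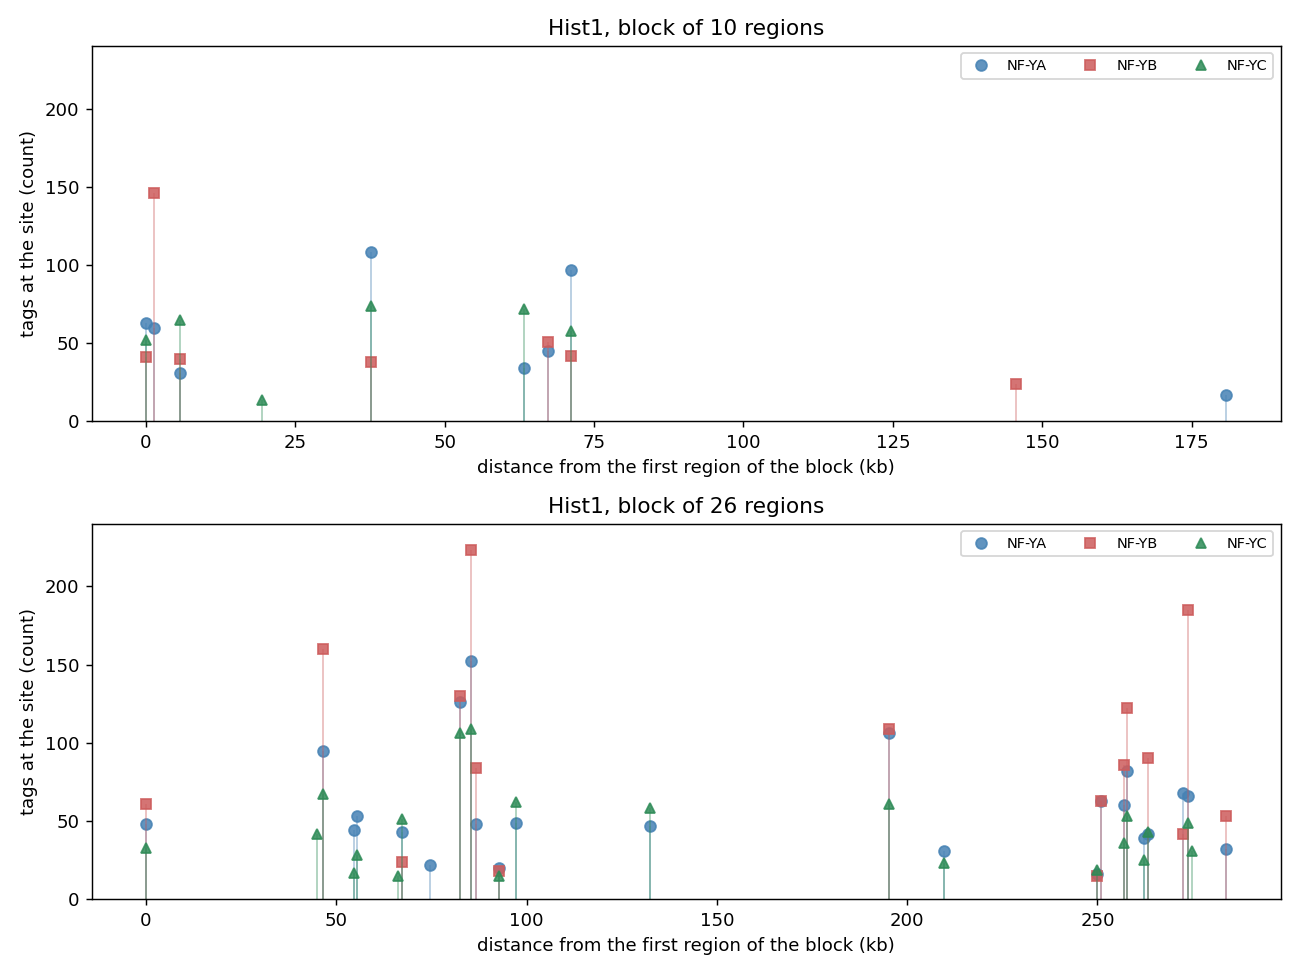
Tags at the sites of each subunit (y axis, raw count) along block 2 (upper panel) and block 5 (lower panel) of Hist1, by distance in kb from the first region of the block (x axis). Each marker is 1 site. NF-YB reaches 223 tags in block 5, and NF-YA and NF-YC lead in several regions of block 2.

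Within the blocks regions were close together. The median gap between neighbouring regions was 5.79 kb in block 5 and 13.7 kb in block 2, against 124 kb over all regions. In 14 cases in the 3 windows neighbours lay within 2000 bp, at 775 to 1575 bp. The subunits called differed in 10 of these 14 pairs (71.4%, 41.9 to 91.6), close to the 74.7% of all 221 such pairs over the genome. A region of all 3 subunits lay beside one that lacked at least 1 in 9 of the 14 pairs (64.3%), against 48.4% over the genome. Of the 4 regions with NF-YC alone, 3 lay beside a region of all 3 subunits, and of the 10 with NF-YA and NF-YB, 5 did. How often such regions lie beside a region of all 3 subunits over the genome was not computed. These counts therefore do not set the clusters apart. A weaker site near a strong one can fall under the tag minimum of 14 or 15 in a library. Whether that sets the differences in the subunits called was not tested.

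Regions of all 3 subunits numbered 23 of 53 (43.4%, 29.8 to 57.7), against 32.2% of all regions. Regions of a single list were 12 of 53 (22.6%, 12.3 to 36.2), against 44.0% of all regions. This came mostly from NF-YA: NF-YA alone made up 7 of 53 regions (13.2%, 5.48 to 25.3) but 31.6% of all regions. NF-YA with NF-YB was found in 10 regions (18.9%, 9.44 to 32), against 11.2% of all regions, and NF-YA with NF-YC in 8 (15.1%, 6.75 to 27.6), against 11.5%. No region held both histone-fold subunits and lacked NF-YA, which allows a share of up to 5.66% by the limit of 3 counts of 53, or 6.72% by the exact interval, and thus leaves room for the 1.05% of all regions. The rest of chromosome 13 had all 3 subunits in 34 of 163 regions (20.9%, 14.9 to 27.9), a lower share than the genome, so Hist1 with 18 of 40 (45.0%, 29.3 to 61.5) lay above its own chromosome in these lists.

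The contrast with the genome differed between choices of sites. When only sites at or above the median tag count of their list were kept, the order was turned round. All 3 subunits were then held by 11 of 39 cluster regions (28.2%) and by 32.2% of all regions. With sites at or above the median fold of their list the shares were 36.1% in the clusters and 24.0% over the genome, and with lists of equal length they were 43.8% and 37.3%. With sites joined only where their intervals overlapped, they were 29% and 23.8%. Among NF-YA sites as a whole, 33 of 48 (68.8%, 53.7 to 81.3) lay with NF-YB and 31 (64.6%, 49.5 to 77.8) with NF-YC, against 50.3% and 50.6% of all NF-YA sites. For NF-YA sites of 29 or more tags the shares were 75% (58.8 to 87.3) with NF-YB and 72.5% (56.1 to 85.4) with NF-YC, and those over the genome 67.8% and 70.2%, inside these intervals. All 27 NF-YB sites of 29 or more tags lay with NF-YA (87.2 to 100%), against 92.9% over the genome.

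**Figure D3:**
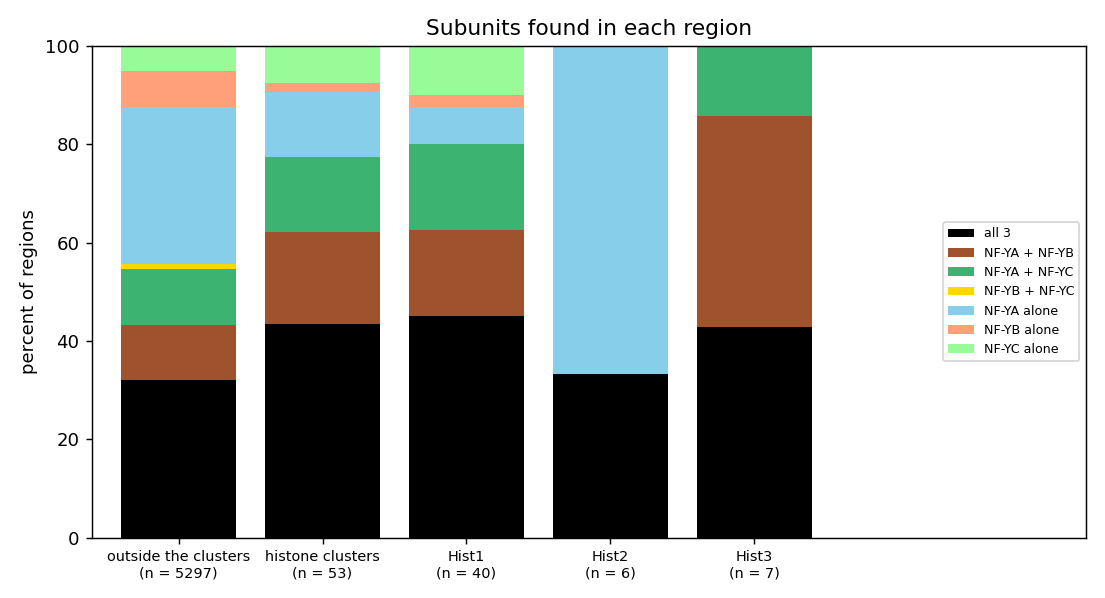
Percent of regions (y axis) by the subunits they hold, for regions outside the windows, for the 3 windows together and for each window. The black part, all 3 subunits, is 32.1% outside and 43.4% in the histone clusters, and the light blue part, NF-YA alone, is 31.8% and 13.2%. Hist2 differs, with 4 of its 6 regions of NF-YA alone.

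Tag counts in the clusters were moderate for NF-YA and reached higher for NF-YB. NF-YA sites had a median of 47.5 tags (15 to 152), against 34 over the whole list, NF-YB sites 57 (15 to 223) against 43, and NF-YC sites 49 (14 to 113) against 36. In percentiles of their own list these were medians of 63.8, 63.6 and 65.9. Few NF-YA sites were at either end: 3 of 48 were above the 90th percentile of the list and 4 below the 25th. Of 34 NF-YB sites, 6 were above the 90th percentile. The NF-YA percentile depended on the length of its list: with lists of equal length it was the 42.0th, below the middle. That setting shortens mainly the NF-YA list, which is the longest, so it does not set NF-YA apart. With every list cut at its own median tags, the medians were 46.5, 59.7 and 52.0, all lower than in the full lists. By fold over input, the deposited ratio, the medians were the 58.6th, 61.0th and 63.4th percentile.

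**Figure D4:**
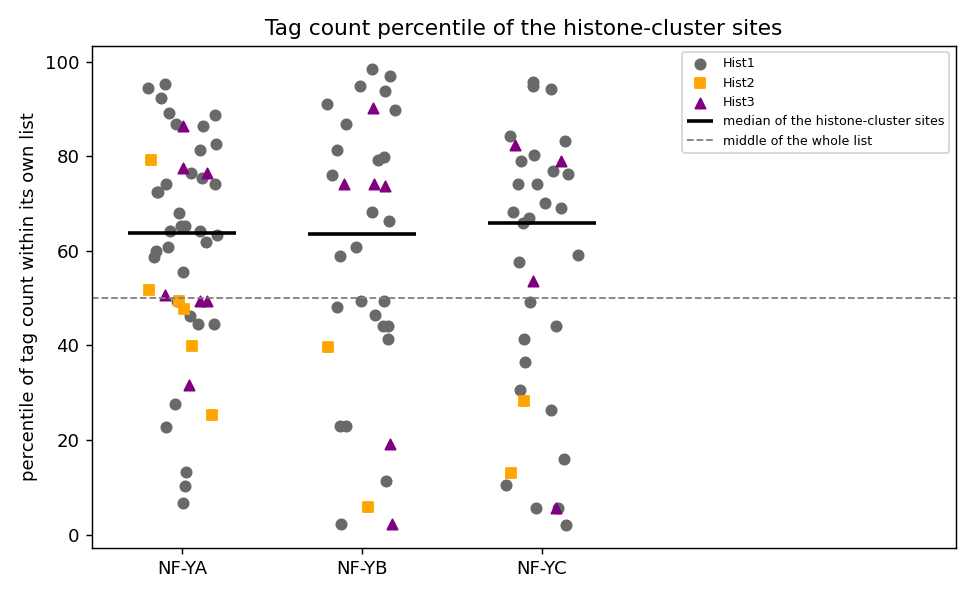
Percentile of tag count within its own list (y axis) for each site in the histone clusters, by subunit (x axis), with the window given by the marker. Black bars are the medians, 63.8, 63.6 and 65.9 from left to right, all above the dashed middle of the list, and the Hist2 sites of NF-YB and NF-YC sit below it.

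The Hist1 region of best mean rank over the lists was chr13:23666151-23666231 in block 5, with 152 NF-YA tags, 223 tags of NF-YB and 109 for NF-YC. These were ranks 219, 42 and 138, and they were the most tags of NF-YA and of NF-YB in the clusters. Its neighbour 3 kb away, chr13:23663091-23663191, had 126, 130 and 106 tags. Most NF-YC tags were at chr13:22127531-22127671 in block 3, where there were 113, beside 143 of NF-YA and 77 of NF-YB. A mean rank was given only to regions of all 3 subunits, so regions chosen by it hold all 3 by selection. The regions of most tags in each list were chosen without that condition, and they too held all 3 subunits. The order of the subunits differed between the regions named here. Many tags did not require all 3 subunits: chr13:21809331-21809451 had 146 NF-YB tags, above the 130 of chr13:23663091-23663191, and no NF-YC site.

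Among the next of the 18 Hist1 regions of all 3 subunits, chr13:23627071-23627171 had 95 NF-YA tags, 160 tags of NF-YB and 67 for NF-YC. Tags at chr13:23775911-23776031 were 106, 109 and 61, and at chr13:23838531-23838571 they were 82, 122 and 53, in the same order of subunits. NF-YB thus led in raw tags in these block 5 regions, in the deepest of the 3 libraries. In chr13:23854271-23854511 the NF-YB site had 185 tags, beside 66 of NF-YA and 49 of NF-YC.

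In block 2 the order was another one. At chr13:21845791-21845911 there were 108 NF-YA tags, 38 tags of NF-YB and 74 for NF-YC, and at chr13:21879191-21879271 there were 97, 42 and 58. The last of the 10 Hist1 regions of best mean rank, chr13:23837431-23837731 in block 5, had 60, 86 and 36 tags, with NF-YB again highest.

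With tags divided by the kept tags of their library, NF-YC exceeded NF-YB in all 6 three-subunit regions of blocks 2 and 3, by 1.54 to 2.37 times (median 1.74). The 95% counting interval of the ratio lay above 1 in each of the 6, the lowest just so (1.01 to 2.38). In block 5 NF-YC exceeded NF-YB in 3 of 12 regions, with a median ratio of 0.626, and the interval lay below 1 in 7 and above 1 in 1. That 1 was chr13:23648011-23648131, with 24 NF-YB and 51 NF-YC tags. Over all regions with both subunits the median ratio was 0.917, and 44.4% were above 1. Of the 12 block 5 regions, 11 lay below the lowest of the 6, though the highest of these, with 15 NF-YB and 19 NF-YC tags, nearly reached it at 1.54. This split was noticed in the data, has 1 library per subunit behind it and was not tested.

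**Figure D5:**
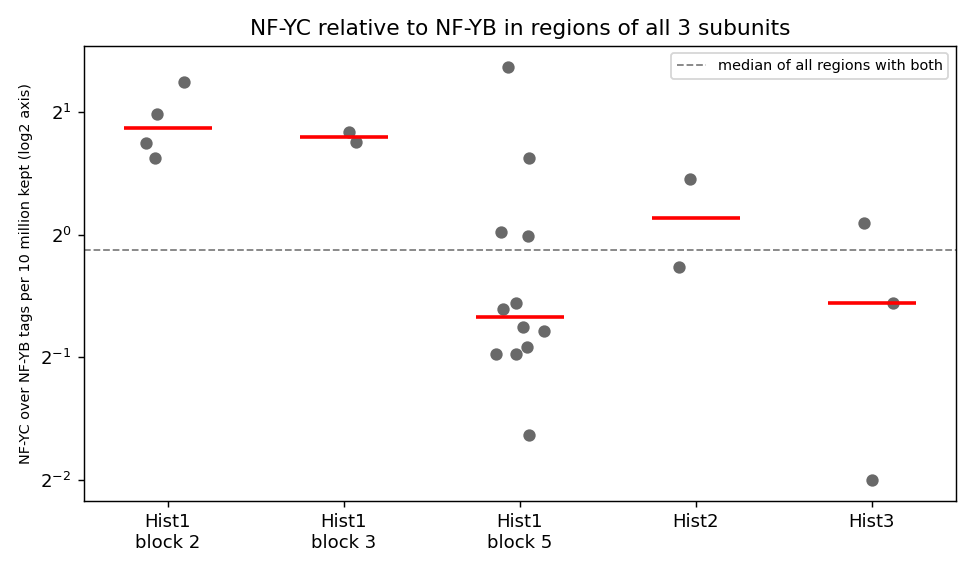
NF-YC over NF-YB tags, each scaled to the kept tags of its library (y axis, log2 scale), for the 23 regions of all 3 subunits by cluster and block; points are regions, red bars medians, and the dashed line the median of all regions with both (0.917). The 6 regions of blocks 2 and 3 lie above 1, and 9 of the 12 regions of block 5 lie below it.

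In regions that lacked NF-YB or NF-YC the ratio has no value, and block 2 held regions with either of them missing. In block 2, chr13:21809331-21809451 had 60 NF-YA and 146 NF-YB tags and no NF-YC site. Of all 601 regions with NF-YA and NF-YB but no NF-YC, 3 had as many NF-YB tags, this one included, and their median was 34. It lay 1238 bp from chr13:21808111-21808211, which had 63, 41 and 52 tags. The converse case was also in block 2: chr13:21871331-21871411 had 34 NF-YA and 72 NF-YC tags and no NF-YB site, and 41 of the 613 such regions had as many NF-YC tags. Regions of 1 block thus differed in which partner was called.

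Other regions with a missing partner also had many tags. In block 5, chr13:23667511-23667591 had 48 NF-YA and 84 NF-YB tags without NF-YC, and chr13:23677911-23677971 had 49 NF-YA and 62 NF-YC tags without NF-YB. The 10 regions of NF-YA and NF-YB had a median of 52 NF-YB tags, against 34 for all such regions, and the 8 of NF-YA and NF-YC a median of 33.5 NF-YC tags, against 29. At chr13:23713111-23713151 NF-YA (47 tags) and NF-YC (58 tags) had folds of 7.05 and 8.76, near the caller's minimum of 7. These folds correspond to about 8 input tags, among the highest input levels in the clusters.

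Single-list regions mostly had few tags. The strongest NF-YC site without partner in Hist1 was chr13:23625611-23625671, with 42 tags, above the median of 36 of its list. The lone NF-YB site, at chr13:21953631-21953671, had 24 tags, and the strongest of 3 lone NF-YA sites, at chr13:23655251-23655291, had 22. Medians of the lone sites, 22 tags for NF-YA and 23 for NF-YC, were close to the 21 and 20 of all lone sites.

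Hist2 on chromosome 3 had the lowest median tag count of the 3 clusters for each subunit. It had the lowest median fold for NF-YB only, at 16.6 over 2 sites, against 21.9 in Hist1 and 23.0 in Hist3. For NF-YA the median fold was 19.8 in Hist2 and 18.0 in Hist3, and for NF-YC 15.7 and 15.1. Both of its regions with all 3 subunits lay about 1 kb apart. At chr3:96072471-96072551 there were 34 NF-YA tags, 16 tags of NF-YB and 18 for NF-YC, and at chr3:96073411-96073591 there were 74, 35 and 24. The remaining 4 regions held NF-YA alone. They were chr3:96023611-96023771 (21 tags), chr3:96024891-96024951 (36 tags), chr3:96066291-96066411 (33 tags) and chr3:96132551-96132811 (28 tags). The lone NF-YA site of 36 tags is the strongest of the 7 in the clusters, but its fold was 7.20, with about 6 input tags. NF-YB and NF-YC were low where they were found, at scaled ratios to NF-YA of 0.390 and 0.392 for NF-YB and 0.534 and 0.327 for NF-YC. All 8 histone promoter windows of chromosome 3 in the RefSeq table held CCAAT, those of H3c14 and H3c15 only after the start of the gene.

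Hist3 on chromosome 11 had no lone site. The RefSeq table lists 2 protein-coding histone genes on this chromosome, beside the 7 regions of the window, and regions were not matched to genes. All 3 subunits were found at chr11:58717771-58717871 (68 NF-YA tags, 74 tags of NF-YB and 65 for NF-YC), at chr11:58742031-58742111 (35, 73 and 15 tags) and at chr11:58768011-58768131 (95, 125 and 70 tags). The first of these had folds of 81.6, 73.5 and 78.6, the highest of the cluster, on about 1 input tag. NF-YA and NF-YB without NF-YC were found at chr11:58718511-58718671 (24 and 15 tags), chr11:58762231-58762491 (34 and 22 tags) and chr11:58773571-58773631 (70 and 74 tags). At chr11:58775111-58775211 there were 34 NF-YA and 39 NF-YC tags without NF-YB. The region of 70 and 74 tags had folds of only 9.33 and 9.19, with about 9 and 8 input tags, so tag count and fold order the Hist3 regions differently.

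The centres of the subunits lay about as close together in the clusters as over the genome. The median distance was 30 bp for each pair (33 regions with NF-YA and NF-YB, 31 with NF-YA and NF-YC, 23 with NF-YB and NF-YC), against 20, 20 and 30 bp over all regions. Between 78.3% and 90.3% lay within 50 bp, about the 79.2% to 82.9% of all regions, and the largest distance was 130 bp. The caller scanned in windows of 20 bp and reported sites of mostly 40 to 60 bp, so these distances are near its resolution. Whether a region holds several CCAAT copies that the calls do not separate was not tested, since no site was placed on a promoter.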

How the data were processed

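The 3 deposited lists hold the binding sites of 1 NF-Y subunit each, from 1 library each. The input library entered as the authors' background only, and the knockdown arrays named in the series' design text were not used. The submitters' processing notes name Bowtie and mm9 for the alignment. Its settings, and its handling of reads that match several histone gene copies, were not given in the sources used here. Near-identical copies may therefore have lost or shared tags. The authors ran SISSRs 1.4 on each library against 13767116 input tags (e-value 10, p-value threshold 0.001, window 20 bp, 1 tag kept per position, at least 2 directional tags on each side), per the file headers. The deposited counts are whole tags per site, not normalized, with minimums of 14, 15 and 14 tags. The deposited fold is the ratio of site tags to depth-scaled input tags, and the input tags quoted were computed back from it. The deposited p-value was not used.

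Sites were chained within 200 bp, ranked within their list and, between subunits, scaled to kept tags. Blocks were split at gaps over 100 kb. Shares carry exact (Clopper-Pearson) 95% intervals. Promoters came from RefSeq (GRCm38.p6), matched by symbol or older symbol. The members, windows, gene lists and named regions were chosen with earlier results of these data known. Named were all Hist2 and Hist3 regions, and in Hist1 the 10 three-subunit regions of best mean rank, the region of most tags per list and the strongest of each single-list class. The other regions, the blocks, the spacing of CCAAT, the extended motifs, the ratio by block and the bound of 29 tags were chosen after their values were seen. Region chaining was tested on simulated lists of well separated regions only, which does not cover the close neighbours in these data. Python 3.11.15, numpy 2.4.6, pandas 2.3.3, scipy 1.17.1 and matplotlib 3.10.9 were used.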

Additional observations from a re-analysis of the deposited data

How the results depend on the processing

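Of 83 alternative values for 16 results, 74 stayed near the reported value: counts within 1.5 times, and shares and medians within their 95% interval. These bounds are loose: the interval of the share with all 3 subunits, 29.8 to 57.7%, also holds the 32.2% of all regions. Chaining at 100 or 500 bp left the 53 regions and their classes as they were. Joining by overlapping intervals lowered the share with all 3 subunits to 29%. Keeping sites at or above the median tags of their list lowered it to 28.2%, left 19 NF-YB and 22 NF-YC sites and moved the NF-YA median percentile to 46.5. The NF-YB and NF-YC medians became 59.7 and 52.0, lower too but inside their intervals. Keeping sites at or above the median fold left 28 NF-YA and 19 NF-YB sites. Lists of equal length moved the NF-YA median percentile to 42.0. Requiring 2 or more copies of CCAAT gave 71.4% of histone promoters, against 11.7% of all. A bound of 30 tags in place of 29, added after seeing the data, left the shares of cluster sites with a partner as they were, while those over the genome became 68.6% and 71.1% for NF-YA and 93.3% for NF-YB. Stricter lists hold fewer sites by construction. Only the Hist1 window held enough regions for its shares to be read alone. No paired analysis was possible because no group had a second library, so no replicate could be left out either. Depth sets the minimum of 14 or 15 tags, and a subunit without a site in a region may have been present below that level.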
